A study of Homo sapiens with 12 samples.

Results

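Broad H3K27ac domains were long merged stretches of peaks of acetylated histone H3 lysine 27. Every library of both lines compared here had at least 1 peak in each domain, but not along its whole width. Peaks from the 4 H3K27ac lists that overlapped by at least 1 bp were merged into 89076 regions. Of these, 19572 held a peak in all 4 lists and are called shared regions below. A shared region of 8000 bp or more was a domain, which gave 1313 domains, or 6.71% of the shared regions, with a total length of 16.7 Mb. The domains were thus selected on merged peak width and presence in every list, and every value from the same peaks is given as a description, with no test.

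A cabozantinib-resistant derivative of Caki-1 was compared with parental Caki-1, called wild-type in the labels. Caki-1 is a human cell line established from a clear cell carcinoma of the kidney. Cabozantinib is an inhibitor of MET, AXL, the VEGF receptors and other kinases. Selection of the resistant cells took place in McCoy's 5A medium, began at 5 µM of the drug and reached 20 µM in steps over 2 months, after which 10 µM was kept up, whereas parental cells grew in RPMI 1640. Drug, medium and selection cannot be told apart. The labels do not say whether the resistant cells are 1 clone. H3K27ac was profiled by chromatin immunoprecipitation in 2 resistant and 2 parental libraries, and RNA was measured in 2 further libraries of each line. DNA inputs, 4 in all, were not analysed here. No label gives separate cultures for the replicates, so the spread between them, and p-values that rest on it, may be technical.

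H3K27ac is written mainly by the acetyltransferases EP300 and CREBBP, removed by histone deacetylases, and read by bromodomain proteins. It marks active promoters and enhancers. Where many active elements lie close together the mark can extend into a long domain, and such domains are often found near genes that set a cell's identity. Merged width is not a super-enhancer call, and none was made here. Positions are in hg19 and carry no gene names, since no annotation of that build was used here.

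The 2 resistant lists held 52367 and 52856 peaks and the 2 parental lists 54810 and 57975. The replicates differed in how much of the genome these peaks covered, which was 46.0 and 86.8 Mb in resistant replicates 1 and 2, against 56.3 and 84.9 Mb in parental replicates 1 and 2. In both lines replicate 2 had longer peaks, with a median length of 604 and 1041 bp in the resistant lists and of 674 and 924 bp in the parental lists. Each peak came with a score from the authors, and what that score measures is not given in the sources used here. Its minimum lay just above 2 in every list. Read depth behind the peaks is unknown. With 2 libraries against 2, no single domain can reach a two-sided exact permutation p below 0.333.

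The domains were from 8002 to 68956 bp wide, with a median of 10606 bp and quartiles of 9017 and 14042 bp. Of them 545 were narrower than 10 kb and 122 were 20 kb or wider. The other shared regions had a median width of 2547 bp. Just inside the limit lay chr19:13273085-13281086 with 8002 bp, chr12:15099556-15107559 with 8004 bp and chr5:96210317-96218323 with 8007 bp. Just outside it lay chr12:54406235-54414233 with 7999 bp, chr6:161603161-161611153 with 7993 bp and chr7:110719420-110727406 with 7987 bp. The limit fell within a continuous range of widths.

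Few regions of domain width were missing from a list. Of 18 regions of 8000 bp or more with a peak in fewer than 4 lists, 15 lacked only resistant replicate 1, the list with the least covered sequence, and 0 lacked both resistant libraries. Both parental libraries had no peak in 2 of them. The first, chr7:31973306-31982137, had 1023 and 8832 bp covered in the resistant libraries. The second, chr9:92076149-92084679, had 3171 and 8531 bp covered in the resistant libraries. In both regions resistant replicate 2 alone spanned the whole width.

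The domains took a modest part of each list. They held 11.0% and 4.77% of the peaks in the resistant lists, and 9.41% and 5.12% in the parental lists. Their share of all covered sequence was 19.1% and 16.9% in the resistant libraries, and 19.9% and 16.4% in the parental libraries. They carried 14.7% and 10.5% of the summed score of the resistant lists, and 13.7% and 10.2% of the parental ones. These shares lay closer together between libraries with the same replicate number than within a line.

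Cover of the domains followed the replicate more than the line. The median domain had 5703 and 9371 bp covered by peaks in resistant replicates 1 and 2, against 7154 and 9004 bp in parental replicates 1 and 2. As a share of domain width the medians were 51.1% and 91.2% in the resistant libraries, and 67.7% and 86.5% in the parental libraries. In both lines replicate 2 exceeded replicate 1 in covered width in 1036 domains, or 78.9%. This held for 65.5% of all shared regions and for 76.4% of those of 4000 to under 8000 bp. For all shared regions the median shares of width were 48.9% and 87.2% in the resistant and 59.1% and 78.6% in the parental libraries. In 629 domains resistant replicate 1 covered less than 50% of the width, against 32 in resistant replicate 2, 279 in parental replicate 1 and 67 in parental replicate 2. The same stretch was thus 1 long peak in some libraries and a chain of short ones in others. The part of this difference between replicates in the contrasts of the lines below was not tested, and scaled and within-replicate values stand beside the unscaled ones.

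**Figure D1:**
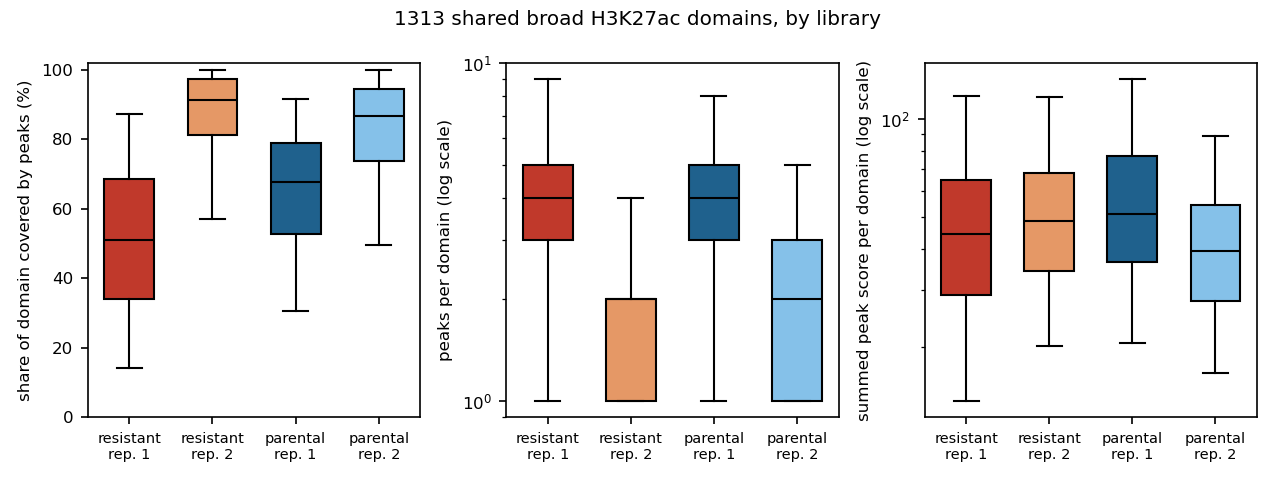
Share of each domain covered by peaks (%), number of peaks and summed score (the last 2 on log axes) of the 1313 domains in each library, with the resistant libraries left of the parental ones (line, median; box, quartiles; whiskers, 5th to 95th percentile). Replicate 2 of each line shows more cover and fewer peaks, and the medians of summed score lie between 39.3 and 51.2.

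Domains broken into many peaks were typical of the replicate 1 libraries. The median number of peaks in a domain was 4 and 2 in resistant replicates 1 and 2, and likewise 4 and 2 in parental replicates 1 and 2. A domain was a single peak in 79 and 593 cases in the resistant libraries, against 94 and 438 cases in the parental libraries. It was split into 5 or more peaks in 498 and 40 cases in the resistant libraries, and in 400 and 74 cases in the parental libraries. Only 9 domains were a single peak in every list. The smallest gap between neighbouring peaks of a list was 280 and 369 bp in the resistant lists and 288 and 376 bp in the parental lists, in each list 1 bp more than its narrowest peak.

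The width of a domain was mostly built from several overlapping peaks. One peak spanned the whole merged domain in 228 cases, or 17.4%, of which 0 and 139 came from resistant replicates 1 and 2 and 2 and 87 from parental replicates 1 and 2. Cover alone reached 8000 bp in every library in 283 domains, or 21.6%. In 175 domains, or 13.3%, it reached 8000 bp in no single library, so their width existed only in the merged lists. It did so in both resistant libraries and neither parental one in 22 domains, and in both parental libraries and neither resistant one in 20.

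Base by base, 39.7% of all domain sequence lay under a peak in all 4 libraries, 25.7% in 3, 20.3% in 2 and 14.2% in 1. Sequence covered in both resistant and no parental library made up 470 kb, or 2.81%, and sequence covered in both parental and no resistant library 495 kb, or 2.96%. Sequence covered in both replicate 2 libraries and no replicate 1 library was 11.1%, and the reverse 0.362%. Within the domains line-specific cover was small in both directions, and smaller than the cover found in both replicate 2 libraries alone. Selection for a peak in every list limits line-specific cover, and the lists differed in total cover. Resistant replicates 1 and 2 covered 52.6% and 87.7% of domain sequence, and parental replicates 1 and 2 67.3% and 83.4%. The ranking is thus only a description, and no such shares were computed for other regions. The median domain had 37.3% of its width covered in all 4 libraries, with quartiles of 23.4% and 50.9%. In 9 domains no base was covered in every library, although each list had a peak there.

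Peak cover was densest in the middle of the domains. Over the middle 20% of their width, 59.2% and 93.1% of domains were covered in the resistant libraries, and 75.3% and 88.9% in the parental libraries. At the outermost 2% on either side, cover averaged 20.5% and 52.7% in the resistant libraries and 24.8% and 45.6% in the parental libraries. All 4 libraries had this shape, and by construction the ends of a merged region are set by its outermost peaks.

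**Figure D2:**
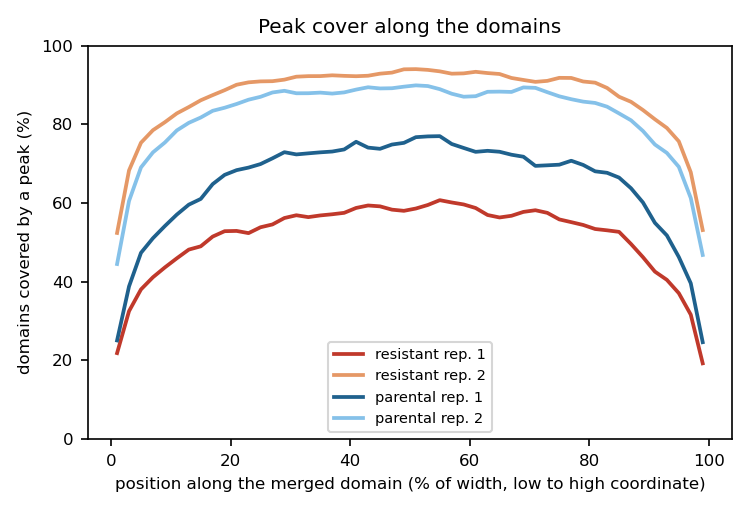
Percent of the 1313 domains covered by a peak at each position along the domain (horizontal axis, % of width from the low to the high coordinate), 1 line per library. Cover falls toward both ends in every library, to 20.5% and 52.7% in resistant replicates 1 and 2 and to 24.8% and 45.6% in parental replicates 1 and 2.

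Stretches within domains that belonged to 1 line were counted from 1000 bp upward, so this limit partly sets their median length. None were measured for other pairs of libraries or outside the domains. In 61 domains 67 stretches were covered in both resistant and no parental library, with a median of 1267 bp. In the other direction 62 stretches in 55 domains had a median of 1272 bp. Most lay inside the cover of the other line rather than at an end of it, 40 of the 67 resistant and 36 of the 62 parental ones. The longest resistant one, chr16:57652768-57655904, measured 3137 bp within the domain chr16:57651136-57669386. The longest parental one, chr4:187623677-187628603, measured 4927 bp within chr4:187599919-187636243. Stretches of 3724 bp at chr1:243423105-243426828 and 3651 bp at chr2:105464757-105468407 were also found only in the parental pair.

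Between the lines, covered width overlapped in most domains. It was higher in both resistant than in both parental libraries in 154 domains, or 11.7%, against 14.3% of all shared regions. It was lower in both resistant libraries in 148 domains, or 11.3%, against 12.2% of shared regions. The remaining 1011 domains overlapped. The median log2 ratio of resistant over parental covered width was -0.10, with -0.37 between the replicate 1 libraries and 0.07 between the replicate 2 libraries. Both shares of domains lay below those of all shared regions. Compared within replicate numbers, a comparison chosen after the data were seen, covered width was higher in the resistant library of both pairs in 21.0% of domains against 25.3% of shared regions, and lower in both in 35.8% against 28.6%.

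Scaling changed the balance between higher and lower domains. Over all shared regions the median log2 ratio of covered width was -0.24 between the replicate 1 libraries and 0.13 between the replicate 2 libraries, so each library was divided by its median over the shared regions. After this, 190 domains were higher in both resistant libraries, or 14.5% against 18.1% of shared regions, and 372 were lower, or 28.3% against 18.9%. Within replicate numbers 340 domains were higher in both pairs, or 25.9% against 29.6%, and 509 were lower in both, or 38.8% against 28.1%. The median scaled log2 ratio was -0.07 between the replicate 1 libraries and -0.08 between the replicate 2 libraries. Of the regions of 4000 to under 8000 bp, 18.1% were higher and 24.2% lower after scaling. Within replicate numbers 27.9% of these regions were higher and 34.6% lower in both pairs after scaling. Before scaling the values were 25.5% and 32.9%. Lower cover in the resistant line was thus more frequent among domains than among all shared regions within replicate pairs, with and without scaling. Across all 4 libraries this held after scaling but not before. Wherever it held, the share of regions of 4000 to under 8000 bp lay in between. The median difference was small. Among the 582 domains with 50% cover in every list, unscaled covered width was higher in 15.8% and lower in 8.42%. Of the shared regions with that cover, 16.5% were higher and 11.8% lower. Scaled shares were not computed for these.

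Summed score was the total of the scores of all peaks in a domain. Before scaling it set the lines apart about as often as in all shared regions. Its median was 44.4 and 48.7 in the resistant libraries, against 51.2 and 39.3 in the parental libraries. It was higher in both resistant libraries in 251 domains, or 19.1%, the same share as the 19.1% of all shared regions. It was lower in both in 167 domains, or 12.7% against 13.6% of shared regions. After scaling the shares were 14.5% higher against 18.5%, and 17.0% lower against 18.5%. Within replicate numbers, scaled scores were higher in both pairs in 24.0% of domains against 26.7%, and lower in both in 26.5% against 26.8%. Without scaling the median log2 ratio was 0.01, with -0.30 between the replicate 1 libraries and 0.34 between the replicate 2 libraries. Over all shared regions the values of these pairs were -0.34 and 0.43. After scaling those of the domains were 0.05 and -0.10. The direction therefore depended on which pair of libraries was read, and within each pair it changed with scaling.

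A sum of scores adds 1 term for each peak, so a domain cut into many peaks collects more terms. The mean score per covered base adds no such terms, but weights the score of each peak by its length. It can thus still differ with how a domain is broken into peaks. In both lines replicate 2 exceeded replicate 1 by this measure in 64.4% of domains, against 43.0% of shared regions. Its median was 13.2 and 35.8 in the resistant libraries, against 18.7 and 24.3 in the parental libraries. The highest single peak had a median score of 19.3 and 39.8 in the resistant libraries and of 25.9 and 28.0 in the parental libraries. By mean score per covered base 129 domains were higher in both resistant libraries, or 9.82% against 16.5% of shared regions, and 92 were lower, or 7.01% against 10.9%. By highest peak 150 domains were higher, or 11.4% against 17.2%, and 124 were lower, or 9.44% against 11.8%. Resistant replicates 1 and 2 were the lowest and the highest of the 4 by either median, so most domains overlapped between lines. The number of peaks was higher in both resistant libraries in 40 domains, or 3.05% against 1.3%, and lower in 54, or 4.11% against 2.91%.

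Across the 1313 domains, the log2 ratio of the replicate 1 libraries and that of the replicate 2 libraries had a Spearman correlation of 0.445 for covered width and of 0.061 for summed score. Over all 19572 shared regions these correlations were 0.229 and 0.112. Over shared regions of 4000 to under 8000 bp they were 0.367 and 0.164. These are descriptions across regions that share the same 4 libraries. For covered width the pairs ranked domains in part alike, while for summed score they hardly did. Width and score also parted within domains, with 67 domains higher in both resistant libraries by both measures, or 5.10% against 5.81% of shared regions. By both measures 31 were lower, or 2.36% against 3.82%, and 20 were higher by one and lower by the other, or 1.52% against 1.25%.

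**Figure D3:**
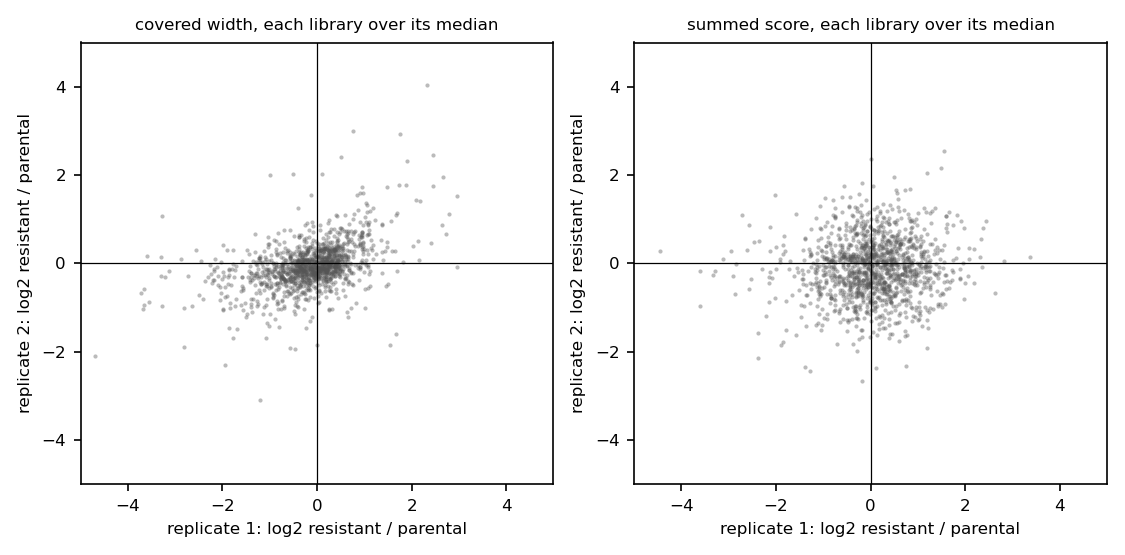
Log2 ratio of the resistant over the parental library of the 1313 domains, replicate 1 on the horizontal and replicate 2 on the vertical axis, for scaled covered width and scaled summed score (each library divided by its median over the shared regions; 1 point per domain). Points stretch along the diagonal for covered width (Spearman correlation 0.445) and form a round cloud for summed score (0.061).

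The widest domain, chr11:122005462-122074417, spanned 68956 bp. Its covered width was 23691 and 65714 bp in the resistant libraries, against 63089 and 67262 bp in the parental libraries. Resistant replicate 1 stood apart from the other 3 libraries, with 24 peaks where resistant replicate 2 had 6 and the parental libraries 9 and 3. Its summed score was 208 and 224 in the resistant libraries and 264 and 143 in the parental libraries, and the lines overlapped. All 4 libraries covered 22723 bp of it together.

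Domain chr9:114767862-114818570, of 50709 bp, had the most peaks on average, 23 and 2 in the resistant libraries and 20 and 9 in the parental ones. Peaks covered 31046 and 50135 bp in the resistant libraries and 29319 and 42951 bp in the parental libraries. The summed score was 243 and 76.6 in the resistant libraries and 210 and 144 in the parental libraries, so the library with the most cover had the lowest sum. Domains chr15:67405711-67451637 and chr2:105986302-106031485 followed with 45927 and 45184 bp. The first had 33816 and 43120 bp covered in the resistant libraries and 40317 and 40953 bp in the parental libraries. The second was a single peak of 45184 bp in resistant replicate 2 and 16 peaks over 31014 bp in resistant replicate 1, against 13 and 8 peaks over 33247 and 36794 bp in the parental libraries. The lines overlapped in covered width in both.

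Domain chr15:96860096-96904121, the fifth by width with 44026 bp, was the least broken of the widest. Its covered width was 36981 and 43909 bp in the resistant libraries, against 42010 and 43578 bp in the parental libraries, and all 36981 bp of the smallest cover were shared by every library. It was a single peak in resistant replicate 2 and parental replicate 2. Its summed score was 280 and 161 in the resistant libraries and 164 and 106 in the parental libraries, and the lines overlapped there too.

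By mean summed score the highest domain was chr7:27147231-27177668, of 30438 bp. It scored 361 and 242 in the resistant libraries, against 252 and 92.3 in the parental libraries. Peaks covered 22432 and 29719 bp in the resistant and 26497 and 28938 bp in the parental libraries. The lines overlapped by both measures. Domain chr1:206269572-206295113, of 25542 bp, scored 296 and 210 in the resistant libraries and 179 and 115 in the parental libraries. Here the resistant libraries lay above the parental ones, a log2 ratio of 0.78 in summed score against 0.01 in covered width. Domain chr1:150532351-150554342, of 21992 bp, scored 159 and 256 in the resistant libraries against 153 and 169 in the parental libraries, with overlap. The widest domain and chr2:105986302-106031485, described above, were the other 2 of the 5 highest.

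Among domains with summed score higher in both resistant libraries, 39 differed by 2-fold or more, which was 2.97% of all domains against 6.49% of shared regions. The largest ratio was at chrX:153303107-153313854, of 10748 bp. Its summed score was 32.6 and 23.8 in the resistant libraries, against 14.1 and 3.01 in the parental libraries, a log2 ratio of 1.72. Peaks covered 8578 and 9873 bp in the resistant libraries and 2089 and 538 bp in the parental libraries, a log2 ratio of 2.81, also the largest of all by width. In 5471 bp of it both resistant libraries had a peak and neither parental one did. Peaks of the parental libraries were confined to a small part of this domain.

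Domain chr7:2792764-2805130 had the same log2 ratio of 1.72, with summed scores of 124.5 and 116.6 in the resistant libraries, against 29.0 and 44.4 in the parental libraries. Covered width differed less, with 8287 and 11247 bp in the resistant libraries and 7379 and 6406 bp in the parental libraries. Domain chr8:126519300-126531373 scored 59.9 and 50.5 in the resistant libraries and 26.98 and 8.37 in the parental libraries, a log2 ratio of 1.64. Its covered width was 7421 and 10425 bp in the resistant libraries, against 2446 and 1896 bp in the parental libraries. In all 3 domains the lines were apart by both measures.

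The other 2 of the 5 rested on one library for their width. Domain chr6:76196834-76208044 scored 27.9 and 15.5 in the resistant libraries and 3.43 and 10.4 in the parental libraries, a log2 ratio of 1.65. Peaks covered 1474 and 11211 bp in the resistant libraries, against 332 and 1838 bp in the parental libraries, and the lines overlapped in width. It was one of the 9 domains with no base covered in every library. Domain chr17:53357591-53366085 scored 40.0 and 61.6 in the resistant libraries and 22.1 and 11.0 in the parental libraries, a log2 ratio of 1.62. Its covered width of 3507 and 8495 bp in the resistant libraries overlapped with 4023 and 1881 bp in the parental libraries.

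Among domains with summed score lower in both resistant libraries, 31 differed by 2-fold or more, or 2.36% of all domains against 4.74% of shared regions. The largest was chr2:105458352-105471776, of 13425 bp. Its summed score was 6.44 and 19.4 in the resistant libraries, against 98.8 and 28.1 in the parental libraries, a log2 ratio of -2.29. Its covered width was 359 and 3381 bp in the resistant libraries and 11423 and 13164 bp in the parental libraries, a log2 ratio of -2.72, the largest decrease by width as well. Both parental and no resistant library covered 7781 bp of it. In the resistant line only fragments of this domain were called.

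Domain chr11:12249431-12258084 scored 5.34 and 18.7 in the resistant libraries and 35.4 and 61.2 in the parental libraries, a log2 ratio of -2.00. Its covered width was 1791 and 5018 bp in the resistant libraries, against 7245 and 7982 bp in the parental libraries. Domain chr7:80545578-80554319 scored 7.44 and 13.5 in the resistant libraries and 49.0 and 29.7 in the parental libraries, a log2 ratio of -1.91. Width and score pointed the same way in both domains.

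At the last 2 of these 5 the lines were apart in score and overlapped in width. Domain chr2:28208774-28219648 scored 9.63 and 10.6 in the resistant libraries, against 32.0 and 40.1 in the parental libraries, a log2 ratio of -1.83. Domain chr10:75830005-75841132 scored 22.3 and 15.3 in the resistant libraries, against 68.6 and 61.3 in the parental libraries, a log2 ratio of -1.79. Covered width of the domain on chromosome 10 was 1671 and 10907 bp in the resistant and 5573 and 8483 bp in the parental libraries, with overlap. Peaks there numbered 4 and 1 in the resistant libraries and 6 and 5 in the parental libraries. The highest single peak scored 8.70 and 15.3 in the resistant libraries, against 24.8 and 23.1 in the parental libraries. The part of peak number in the difference of sums was not tested.

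**Figure D4:**
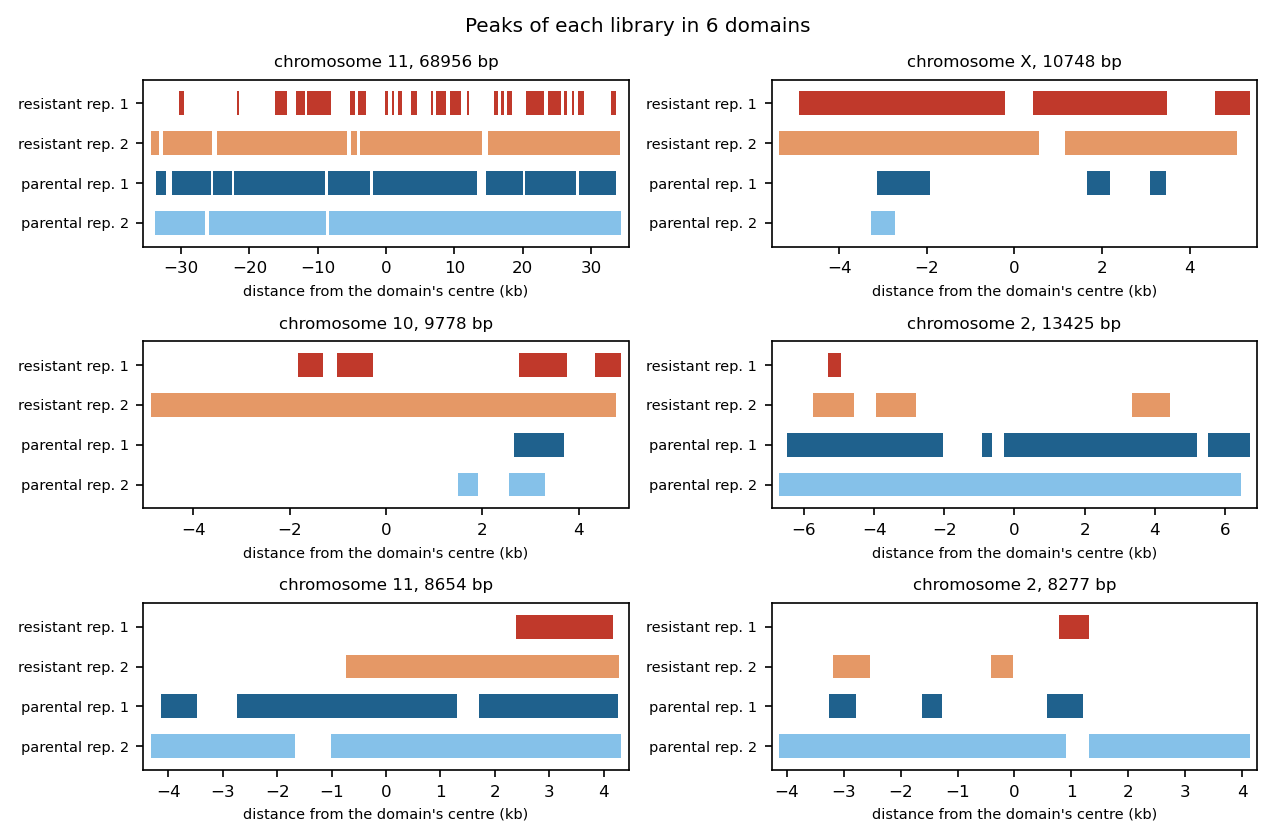
Peaks of each library in 6 domains, as bars along the distance from the domain's centre in kb, with the 2 resistant libraries above the 2 parental ones in every panel. The panels hold the widest domain (68956 bp), the domains on chromosomes X (10748 bp) and 10 (9778 bp) with wider resistant cover, and those on chromosomes 2 (13425 bp), 11 (8654 bp) and 2 (8277 bp) with wider parental cover.

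By covered width, 29 domains were higher by 2-fold or more in both resistant libraries, or 2.21% against 4.22% of shared regions, and 39 were lower, or 2.97% against 3.58%. Differences of this size were less frequent among domains than among shared regions by either measure. After the domain on chromosome X, the largest was chr10:21567785-21577562, with 2826 and 9661 bp covered in the resistant libraries, against 1034 and 1153 bp in the parental libraries, a log2 ratio of 2.51. Domain chr20:52320488-52330677 had 7506 and 8932 bp in the resistant libraries and 1446 and 2094 bp in the parental libraries, a log2 ratio of 2.22. Of its 10190 bp, 4333 bp were covered in both resistant and no parental library.

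In the other direction, chr2:54875866-54884142 had 517 and 1022 bp covered in the resistant libraries, against 1464 and 7880 bp in the parental libraries, a log2 ratio of -2.60. That ratio rested on parental replicate 2, the only library to cover most of its 8277 bp. Domain chr12:951692-964183 had 1640 and 2698 bp in the resistant libraries and 7709 and 12089 bp in the parental libraries, a log2 ratio of -2.19. Its summed score, 17.3 and 34.7 in the resistant libraries and 28.0 and 54.1 in the parental libraries, overlapped between the lines.

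Domains lay near one another, and stretches that did not overlap by 1 bp counted as separate domains however small the gap. The median distance from a domain to the nearest other domain was 50.9 kb, and 769 domains, or 58.6%, had another within 100 kb. The nearest shared region of any width was a median of 3.17 kb from a domain, against 15.5 kb from one of the 18259 narrower shared regions. Chains of 3 or more domains spaced by 100 kb or less numbered 114 and held 455 domains. The longest chain, chr2:27925994-28219648, held 10 domains. There 4 domains were lower in summed score in both resistant libraries and 0 higher, while covered width overlapped in all 10. After scaling, 7 of the 10 were lower and 1 higher in covered width, and 3 were lower and 0 higher in summed score. Unscaled summed score was lower in 12.7% of all domains and 13.6% of shared regions. Of chromosome 2 as a whole, 40.8% of domains and 23.7% of shared regions were lower in scaled covered width. In scaled summed score these shares were 23.2% and 22.7%.

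Within 4 of the 114 chains every domain had higher covered width in both resistant libraries, and within 1 every domain was lower. Of all domains 11.7% were higher and 11.3% lower, and of all shared regions 14.3% and 12.2%. Chains of other shared regions were not counted. The longest of the 4 chains with higher cover was chr7:47537004-47715316, where 7 of 7 domains were higher in both covered width and summed score. After scaling, 7 of 7 remained higher in covered width and 5 in summed score. Domains chr7:47686037-47701973 and chr7:47702178-47715316 of this chain lay closer together than 500 bp, the alternative merging distance. They counted as separate since merging required overlap. Of chromosome 7 as a whole, 33.3% of domains and 26.6% of shared regions were higher in scaled covered width. In scaled summed score these shares were 37.5% and 31.4%. The widest of the 7 domains, chr7:47634149-47653552, had 18645 and 17969 bp covered in the resistant libraries, against 8246 and 12552 bp in the parental libraries. Its summed score was 67.2 and 85.8 in the resistant libraries and 52.0 and 65.8 in the parental libraries. At chr7:47556023-47564181 covered width was 7477 and 6609 bp in the resistant libraries and 1319 and 2762 bp in the parental libraries. In this chain resistant replicate 1, the library with the least covered sequence, covered more than either parental library in every domain. The call of higher in unscaled covered width already required this.

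The other 3 chains with wider resistant cover were chr20:48832427-48930183 with 5 domains, chr7:2792764-2866057 with 3 and chr8:126437573-126544285 with 3. In the first of these 0 domains were higher in summed score and 0 lower, and in the last 2 of 3 were higher in both resistant libraries. By scaled covered width 3 of 5, 2 of 3 and 3 of 3 domains of these chains, in that order, were higher. The chain with narrower resistant cover was chr11:33709763-33750056, of 3 domains, 1 of which was higher in summed score. By scaled covered width 2 of its 3 domains were lower. With scaled widths, 2 chains were higher in every domain and 11 lower in every domain.

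All 22 autosomes and chromosome X had domains. Chromosome 1 had 149 and chromosome 2 had 142, together 22.2% of all. Relative to the number of shared regions, domains were most frequent on chromosome 10, with 9.46%, followed by chromosome 7 with 8.43%, chromosome 12 with 8.32% and chromosome 2 with 8.31%. They were least frequent on chromosome X, with 7 domains or 2.03%, chromosome 19 with 2.79%, chromosome 16 with 3.29% and chromosome 6 with 3.74%. The spread between chromosomes was thus more than 4-fold around 6.71%.

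Scaled covered width differed in direction between chromosomes. On chromosome 12 the median log2 ratio of its 90 domains was -0.46 between the replicate 1 libraries and -0.22 between the replicate 2 libraries, and 47 domains, or 52.2%, were lower in scaled width in both resistant libraries against 5, or 5.56%, higher. Of its shared regions 28.2% were lower and 10.4% higher. On chromosome 3 the medians of 80 domains were -0.42 and -0.24, with 41 domains lower and 4 higher, or 51.3% and 5.00%, against 25.4% and 14.2% of its shared regions. On chromosome 2 they were -0.30 and -0.17 over 142 domains. All shared regions of chromosome 3 had medians of -0.13 and -0.10, and those of chromosome 12 -0.16 in both pairs. By the median, shared regions of these 2 chromosomes were thus lower as well, and their domains more so.

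In summed score chromosomes 7 and 18 had the highest share of domains above the parental line after scaling, 37.5% on each. The 96 domains of chromosome 7 had median scaled log2 ratios of 0.53 between the replicate 1 libraries and 0.17 between the replicate 2 libraries, against 0.33 and 0.12 over all its shared regions. There 36 domains were higher in scaled summed score in both resistant libraries and 12 lower, or 37.5% and 12.5%, against 31.4% and 15.2% of its shared regions. The 24 domains of chromosome 18 had medians of 0.50 and 0.03, with 9 higher and 2 lower, or 37.5% and 8.33%, against 22.9% and 12.4% of its shared regions. Covered width of the chromosome 7 domains had medians of 0.32 and -0.08, of opposite sign in the 2 pairs. Summed score was lower in both pairs on chromosome 3, at -0.25 and -0.23, and on chromosome 12, at -0.19 and -0.25. Over all chromosomes, median scaled covered width was lower in both pairs on 9 and higher in both on 8. DNA copy number of these chromosomes was not measured here, and its part in the values was not tested.

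**Figure D5:**
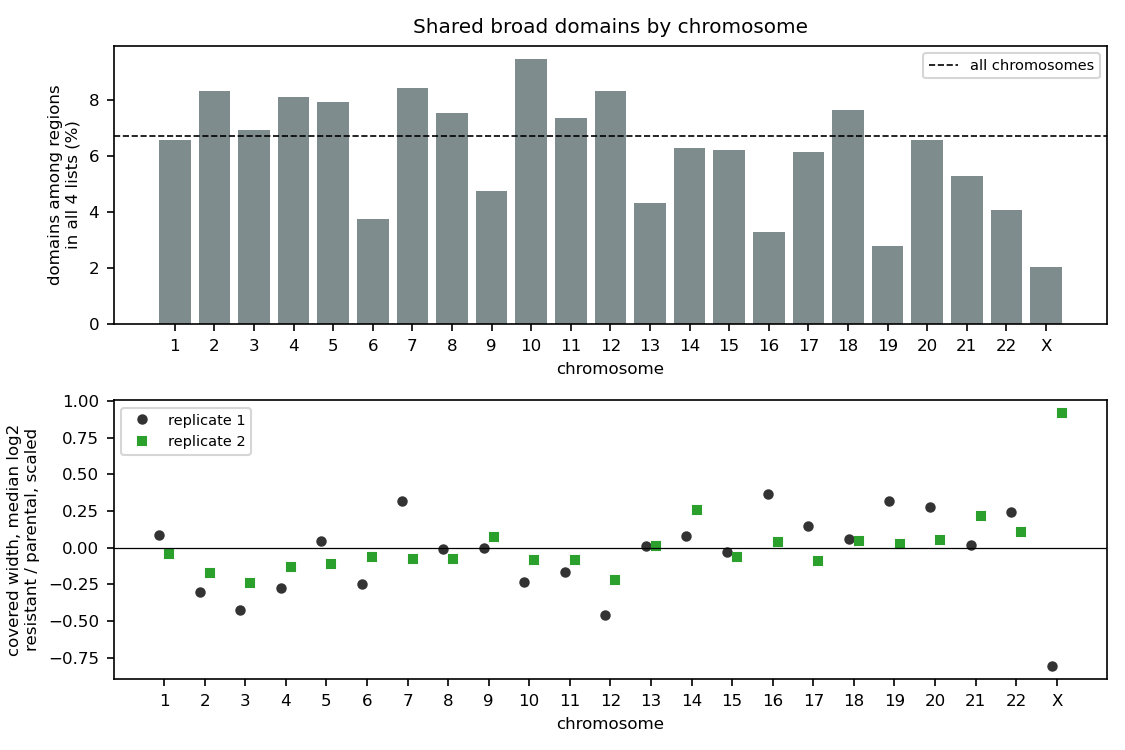
Upper panel, domains as a percent of shared regions on each chromosome, with a dashed line at 6.71% for all; lower panel, median log2 ratio of resistant over parental scaled covered width of the domains, for replicate 1 and replicate 2. Chromosomes 2, 3 and 12 lie below 0 in both pairs, and chromosome X, with 7 domains, has medians of -0.81 and 0.92.

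RNA of the same lines served to check their identity and to describe the enzymes and readers of the mark. Among renal epithelial markers PAX8, a kidney transcription factor, stood at 132.6 and 132.6 TPM in the resistant libraries and 210.2 and 204.8 TPM in the parental libraries, and the epithelial keratin KRT8 stood at 229 and 339 TPM in the resistant libraries and 321 and 308 TPM in the parental libraries. LHX1, which regulates genes of the developing kidney, had 2.62 and 4.65 TPM in the resistant libraries and 0.23 and 0.16 TPM in the parental libraries, and PAX2, another regulator of that kind, was listed at 0 in all 4. CDH6 had 1.31 and 1.81 TPM in the resistant libraries and 1.99 and 1.45 TPM in the parental libraries, and EPCAM 0.72 and 1.60 TPM and 2.36 and 1.95 TPM. The summed level of all 7 renal markers was 585 and 791 TPM in the resistant libraries, against 769 and 744 TPM in the parental libraries, with overlap. This sum rested almost wholly on PAX8, KRT8 and the keratin KRT18, so it says little of the other listed renal markers. The summed level of 6 listed blood, endothelial and fibroblast markers was 3.26 and 4.60 TPM in the resistant libraries, against 15.5 and 16.1 TPM in the parental libraries. Of them, the leukocyte markers PTPRC and CD3E and the endothelial marker VWF were at or near 0 in every library, and the matrix gene DCN held most of the parental sum.

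The mRNA of 48 listed genes was tested in a fit over 12792 genes. The list held 8 writers of histone acetylation, 12 erasers and corepressors, 8 readers and remodellers, 8 genes that set or remove opposing methylation or their partners, and 12 genes of Mediator, transcription kinases, cohesin and its loader or partner. With edgeR's quasi-likelihood test and Benjamini-Hochberg adjustment, 0 of the 48 were higher and 0 lower in the resistant line, against 2.96% of all genes tested higher and 3.41% lower. DESeq2 also called 0. At an unadjusted p under 0.05 edgeR found 3, against 27% of all genes tested. The median log2 fold change of the 48 was -0.14, against 0.02 over all genes tested. A gene that misses the threshold is not shown to be unchanged, and leaving out resistant replicate 1 gave 10 of the 48 higher and 21 lower, beside 3374 higher and 3479 lower over all genes.

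The writer EP300 had 53.8 and 25.6 CPM in the resistant libraries, against 43.4 and 49.0 CPM in the parental libraries, a log2 fold change of -0.22 ± 0.34 (SE; edgeR adjusted p = 0.715). Its partner CREBBP had 92.6 and 55.6 CPM in the resistant libraries and 84.5 and 80.4 CPM in the parental libraries, a log2 fold change of -0.15 (edgeR adjusted p = 0.732). For both writers the resistant replicates lay on either side of the parental pair. Of the erasers, HDAC1 had a log2 fold change of 0.26 (edgeR adjusted p = 0.292) and HDAC3 of 0.20 (edgeR adjusted p = 0.496), with both HDAC1 values higher in the resistant line.

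EZH2, which methylates the same lysine and so opposes its acetylation, had 18.7 and 27.3 CPM in the resistant libraries, against 14.2 and 15.5 CPM in the parental libraries. Its log2 fold change of 0.63 ± 0.24 (SE) had an unadjusted p of 0.0373 and an edgeR adjusted p of 0.158. The other 2 genes with an unadjusted p under 0.05, named after their values were seen, were the acetyltransferase KAT5 (log2 fold change 0.49, edgeR adjusted p = 0.131) and KDM6B, which removes methylation from the same lysine (log2 fold change -0.57, edgeR adjusted p = 0.0991). All 3 had resistant values outside the range of the parental pair.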

How the data were processed

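H3K27ac peaks and RNA were taken as deposited. Per the labels, cells were fixed in 1% formaldehyde for 10 min and libraries read as 150-bp pairs. The authors deposited 1 peak list per library, with the position and score of every peak. Neither the peak caller nor how inputs were used is given in the sources used here. The submitters' processing notes name hg19, GRCh38, STAR, RSEM and DESeq2 1.40.2 without roles. Peaks end at up to 249240417 on chromosome 1, beyond its length in GRCh38, and were read as hg19. The authors' deposited RNA tables hold RSEM estimated counts, of which 3.16% were fractional and were rounded, and TPM. Library totals were 14664712 and 12851392 counts in the resistant and 10605109 and 10584085 in the parental libraries.

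Peaks were merged with Python 3.11.15 and pandas 2.3.3. For each domain the covered base pairs, number of peaks, summed score, length-weighted mean score and highest score per library were computed. A domain was called higher where both resistant values exceeded both parental ones, and lower in the reverse case, and log2 ratios compare group means. Scaled values were divided by the library's median over shared regions. Domains were named by a rule: the 5 widest, the 5 highest by summed score, the 5 largest differences each way by score and 3 by width, those nearest the limit, and that with most peaks. Chains, line-specific stretches and chromosomes were described after their values were seen. The domains, gene list and rules were chosen with earlier results of these data known. Genes were kept by filterByExpr (12792), scaled by TMM and tested in edgeR 4.0.16 (R 4.3.3), line as the only term, threshold 0.05. CPM are scaled by TMM. PECAM1, a seventh marker of other cells, is not in the tables used here. The merging and counting steps were tested on simulated peaks. Alternatives covered merging distance (500 bp), score (5 or more), list length, width, cover (50%), scaling, left-out libraries and, for RNA, size factors, filter, DESeq2 1.42.0 and a replicate block. Of the genes that were to be named in any case, 1 is not reported here. Sequences and gene names of domains were not used here.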

Additional observations from a re-analysis of the deposited data

How the results depend on the processing

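Merging within 500 bp, a score of 5 or more, and the 52367 best peaks per list kept the number of domains within 1.5 times 1313. It was 3611 at 5000 bp or more, 466 at 12000 bp or more and 582 with 50% cover in every list, and 842 to 1255 with 1 library left out, lowest without resistant replicate 2. The share of domains higher in covered width ranged from 9.50% to 55.9% with 1 library left out (all shared regions 16.05% to 51.5%), and was 25.9% within replicate pairs. The share lower ranged from 10.2% to 77.0% (shared regions 16.1% to 57.9%), and was 28.3% after scaling and 38.8% within pairs; the median log2 ratio ranged from -0.58 to 0.20, lowest without resistant replicate 2 and highest without resistant replicate 1. Leaving out a library compares 1 with 2, which sets lines apart more often by construction. With 50% cover in every list, 15.8% of domains were higher and 8.42% lower in covered width, against 16.5% and 11.8% of shared regions with that cover. Of the domains of 12000 bp or more, 12.7% were higher and 9.87% lower, against 14.3% and 12.2% of shared regions. The share higher in summed score ranged from 26.1% to 48.0% with 1 library left out (shared regions 25.7% to 47.3%), and was 9.82% by mean score per covered base and 11.4% by highest peak. The share lower ranged from 17.2% to 42.5% (shared regions 22.4% to 44.0%), and was 6.70% with 50% cover, 7.01% by mean score per covered base and 26.5% within pairs, and its median log2 ratio ranged from -0.13 to 0.28. The cause of these differences was not tested. The within-pair comparison was chosen after the data were seen. Of the 48 listed genes 0 to 10 were higher and 0 to 21 lower with 1 RNA library left out, beside 141 to 3374 higher and 264 to 3479 lower over all genes, where the single library of a line was taken to vary as the other line's pair does.

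Replicate numbers are shared between the lines, but the labels do not say that they pair the samples. Replicate differences had a Pearson correlation of 0.175 for covered width across shared regions and -0.05 for RNA across genes. With the replicate block 0 listed genes were higher and 0 lower, and all genes called moved to 860 higher and 1020 lower, against 379 and 436. Peak values have no model to block.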
